A study of Mus musculus with 4 samples.

Results

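The 9 genes described here take part in antigen presentation on MHC class II molecules: H2-Aa, H2-Ab1 and H2-Eb1, Cd74, Ciita, H2-DMa, H2-DMb1, Cd83 and Cd86. They were chosen by their symbols and are 9 of the 32285 genes in the matrices. All 9 were detected in each of the 4 single-cell RNA sequencing libraries, which were prepared from the stromal vascular fraction of brown adipose tissue (BAT). The fraction holds the cells that remain once the fat-laden brown adipocytes are removed, and the study's methods mention a sorting step before capture without giving its gate. The WT library came from C57BL6/J mice labelled wild type and 10 weeks old. The db/db libraries, shown in the plots as db/db with 8w or 16w, came from 8- and 16-week-old mice labelled DB_DB and C57BL6/J, which carry a mutation of the leptin receptor gene in every tissue, overeat and become obese and diabetic, and which the methods name B6.BKS(D)-Leprdb/J. The HFD library came from mice labelled 10 weeks old and C57BL6/J with HFD in the genotype field, which were fed a high-fat diet. The methods state that the diet began at 10 weeks of age and lasted 10 weeks, so that the label and the methods leave the age of these mice unclear. According to the methods all mice were male and were fasted before their tissue was taken. Each group was 1 library made from the pooled cells of several mice, which cannot be told apart within it, so no difference between groups could be tested, and the intervals given below are 95% intervals for counting error only. Every ratio to WT shares the same WT library.

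MHC class II molecules are pairs of an alpha and a beta chain that display peptides from engulfed proteins to CD4 T cells. H2-Aa and H2-Ab1 encode the alpha and beta chains of I-A, and H2-Eb1 encodes the beta chain of I-E, whose alpha chain gene is disrupted in mice of the C57BL/6 background. The invariant chain, encoded by Cd74, occupies the groove during assembly until it is cut down by proteases such as cathepsin S, after which the H2-DM pair, made from H2-DMa and a beta chain from H2-DMb1 or its neighbour H2-DMb2, exchanges the remaining fragment for a peptide. Ciita encodes the coactivator that sets transcription of these genes by docking on factors bound to conserved promoter elements known as the X1, X2 and Y boxes. Cd86 is a costimulatory ligand for T cells, and Cd83 counteracts the ubiquitin ligase March1, which removes class II molecules and Cd86 from the cell surface. In adipose tissue dendritic cells, B cells and a portion of the macrophages carry class II molecules.

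On the GRCm38 assembly, which the authors' files use as mm10, the genes of the chains and of H2-DM lie close together on chromosome 17: H2-DMa at chr17:34119541-34139101 (+ strand), H2-DMb1 at chr17:34153072-34160230 (+), H2-Ab1 at chr17:34257689-34269419 (+), H2-Aa at chr17:34282744-34287823 (- strand) and H2-Eb1 at chr17:34305867-34316674 (+). H2-DMb2, no member but the neighbour and near copy of H2-DMb1, lies between H2-DMa and H2-DMb1 at chr17:34143307-34151555 (+). Ciita lies at chr16:10480059-10528418 (+), Cd86 at chr16:36603869-36666081 (-) and Cd83 at chr13:43784775-43803132 (+). All of these are protein-coding genes, with the whole gene body given from the GENCODE annotation. RefSeq promoter windows of GRCm38.p6 were matched by symbol to 4 of the 9 members, in 5 windows, and H2-Ab1, Cd74, Ciita, Cd83 and Cd86 had no entry. The 210 bases just upstream of each start in the RefSeq windows are printed 5′ to 3′ on the gene's own strand. Both H2-DMa windows lie inside the GENCODE gene body given above, and the H2-DMb1 window runs across the start of its gene body. The bases before the start of the H2-DMa gene body were not searched. Capitals mark matches, on either strand, to GATTGG (the core of the Y box, CCAATC on the other strand), CCTAG (a core of the X1 box, CTAGG on the other strand) and TGACG (the core of the X2 box, CGTCA on the other strand).
H2-Aa promoter, chr17:34287824-34288033 (-): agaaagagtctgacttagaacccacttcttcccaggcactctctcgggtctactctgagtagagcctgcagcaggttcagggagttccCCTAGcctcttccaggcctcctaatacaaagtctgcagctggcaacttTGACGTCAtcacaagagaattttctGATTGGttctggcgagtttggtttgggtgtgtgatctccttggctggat
H2-Eb1 promoter, chr17:34305657-34305866 (+): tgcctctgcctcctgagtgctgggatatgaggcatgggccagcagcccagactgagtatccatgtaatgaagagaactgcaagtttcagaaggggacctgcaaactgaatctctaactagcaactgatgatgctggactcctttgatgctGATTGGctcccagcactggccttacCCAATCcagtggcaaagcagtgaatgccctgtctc
H2-DMb1 promoter, chr17:34152981-34153190 (+): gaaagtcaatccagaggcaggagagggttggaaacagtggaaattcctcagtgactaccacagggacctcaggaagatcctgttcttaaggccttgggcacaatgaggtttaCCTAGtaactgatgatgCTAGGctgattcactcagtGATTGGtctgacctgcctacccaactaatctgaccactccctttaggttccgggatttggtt
H2-DMa window 1 promoter, chr17:34122622-34122831 (+): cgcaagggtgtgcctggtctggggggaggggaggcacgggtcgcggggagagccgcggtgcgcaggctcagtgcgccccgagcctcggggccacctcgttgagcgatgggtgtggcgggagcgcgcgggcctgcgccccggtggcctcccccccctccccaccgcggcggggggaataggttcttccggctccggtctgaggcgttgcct
H2-DMa window 2 promoter, chr17:34125308-34125517 (+): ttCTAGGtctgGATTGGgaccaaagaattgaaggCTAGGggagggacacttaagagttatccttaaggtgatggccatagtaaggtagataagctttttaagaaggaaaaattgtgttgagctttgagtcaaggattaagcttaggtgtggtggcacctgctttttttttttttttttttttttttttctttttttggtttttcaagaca
In the H2-Aa window the Y box core began 49 bases before the start and the X2 core 74 bases before it, where its matches on the 2 strands overlapped. A match to the X1 letters began 122 bases before the start, apart from the X2 core. Whether that match is the X1 box of the gene was not tested. The H2-DMb1 window held the Y box core 62 bases and a match to the X1 letters 98 bases before the start. The H2-Eb1 window held the Y box core on the forward strand at 60 bases and on the reverse strand at 35 bases before its start. The first H2-DMa window held none of the 3 motifs, and the second held a Y box core only 199 bases before its start, beside X1 matches on the reverse strand. Of all 32851 mouse promoter windows of 300 bases, 16.1% held GATTGG, 37.9% CCTAG and 20.8% TGACG on either strand, and 0.998% held all 3 among the 250 bases upstream. These short motifs are therefore common, and a match describes the letters of a window only. Only these exact letters were searched, so a box spelled otherwise is left unmarked.

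After the study's limits on genes, unique molecular identifiers (UMIs) and mitochondrial share, 5944 cells remained in WT, 11648 in 8-week db/db, 5833 in 16-week db/db and 5462 in HFD, with between 26558173 and 53420105 UMIs a library and median depths of 2733 to 6218 UMIs a cell. The 16-week db/db library stood apart before any comparison. Only 1.04% of its barcodes passed 15% mitochondrial UMIs, against 28% in WT, 35.6% in 8-week db/db and 68.5% in HFD. Xist, the RNA of the inactive X chromosome, stood at 207 CPM in it (UMIs of the gene for every 1000000 UMIs of the cells counted) and at 0.688, 0.187 and 0.245 CPM in WT, 8-week db/db and HFD, while 4 Y-linked genes together stood at 17.7 CPM against 164 to 188 CPM. These values go against male mice alone in the library labelled 16-week db/db, so that sex, mitochondrial share and preparation cannot be told apart from the group wherever that library is compared. In HFD only 31.3% of barcodes were kept. Pairs of libraries shared 16 to 97 barcode sequences, of which 7 to 25 were kept in each.

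Cells were assigned to types by raw UMIs of genes outside the 9. Myeloid cells with a complement C1q share of at least 0.2% of their UMIs, a trait of resident macrophages, formed the macrophage gate with 1120 cells in WT, 2451 in 8-week db/db, 1531 in 16-week db/db and 1359 in HFD, which was 18.8%, 21%, 26.2% and 24.9% of the kept cells. Adgre1, the macrophage antigen F4/80, was not used in the gate and was found there at 224 CPM in WT, 303 in 8-week db/db, 259 in 16-week db/db and 474 in HFD, against at most 13.4 CPM in cells gated as stromal. Myeloid cells that fell into no named gate held it as well, at 240 CPM in WT, 211 in 8-week db/db, 159 in 16-week db/db and 208 in HFD. It therefore separated macrophages from stromal cells but did not set them apart from these myeloid cells. The class II sum below adds H2-Aa, H2-Ab1, H2-Eb1 and Cd74.

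Across all kept cells the class II sum stood at 3311 CPM in WT, 5274 in 8-week db/db, 1856 in 16-week db/db and 9059 in HFD. Relative to WT this was a log2 ratio of 0.67 (0.66 to 0.68) in 8-week db/db, -0.84 (-0.85 to -0.82) in 16-week db/db and 1.45 (1.44 to 1.46) in HFD. A level summed over all cells moves with the share of immune cells as well as with their content. H2-DMa, the alpha chain of the peptide exchanger, was ordered otherwise, at 58.3 CPM in WT, 102 in 8-week db/db, 106 in 16-week db/db and 152 in HFD, and so was lowest in WT. Cd83 stood at 308 CPM in WT, 559 in 8-week db/db, 61.8 in 16-week db/db and 158 in HFD, and Cd86 at 40.4 CPM in WT, 58.5 in 8-week db/db, 15.6 in 16-week db/db and 27.4 in HFD, and both were lower in HFD than in WT although the chains were higher there.

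Within gated macrophages the class II sum was 14010.5 (13926 to 14095) CPM in WT, 10677 (10625 to 10729) in 8-week db/db, 2168 (2138 to 2198) in 16-week db/db and 16854 (16773 to 16936) in HFD. It was 6.46-fold lower in 16-week db/db than in WT, a log2 ratio of -2.69 (-2.71 to -2.67). In 8-week db/db it was 1.31-fold lower, a log2 ratio of -0.39 (-0.40 to -0.38), and in HFD 1.2-fold higher, at 0.27 (0.26 to 0.28). The higher level over all cells of 8-week db/db was thus not found in its macrophages. Once macrophages with an inflammatory set of transcripts, described further on, were left out, the log2 ratios were -0.39, -1.89 and 1.12 in 8-week db/db, 16-week db/db and HFD.

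The chain genes moved closely with the sum. H2-Aa, the I-A alpha chain, stood at 3087 CPM in WT, 2187 in 8-week db/db, 481 in 16-week db/db and 3760.1 in HFD. H2-Ab1, its beta chain partner, stood at 2022 CPM in WT, 1517 in 8-week db/db, 320.2 in 16-week db/db and 2963 in HFD. H2-Eb1, the I-E beta chain, stood at 2081 CPM in WT, 1478 in 8-week db/db, 249 in 16-week db/db and 2858 in HFD. In 16-week db/db the log2 ratios to WT were -2.68 (-2.73 to -2.64) for H2-Aa, -2.66 (-2.72 to -2.60) for H2-Ab1 and -3.06 (-3.12 to -3.00) for H2-Eb1, so that H2-Eb1 was the lowest of the chains relative to WT. Cd74, the invariant chain, stood at 6821 CPM in WT, 5496 in 8-week db/db, 1118 in 16-week db/db and 7273 in HFD, with log2 ratios of -0.31, -2.61 (-2.64 to -2.58) and 0.09 (0.08 to 0.11) in 8-week db/db, 16-week db/db and HFD. Its HFD ratio was nearer to 0 than those of the chains, which were 0.28 for H2-Aa, 0.55 for H2-Ab1 and 0.46 for H2-Eb1.

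Ciita, the coactivator of the pathway, stood at 36.4 (32.2 to 40.9) CPM in WT, 20.9 (18.7 to 23.3) in 8-week db/db, 4.49 (3.23 to 6.07) in 16-week db/db and 87.2 (81.5 to 93.2) in HFD. Its log2 ratios to WT, -0.80 (-1.04 to -0.56) in 8-week db/db, -3.02 (-3.52 to -2.55) in 16-week db/db and 1.26 (1.06 to 1.46) in HFD, followed the order of the chains. H2-DMb1, the beta chain of the peptide exchanger, stood at 121 CPM in WT, 90.2 in 8-week db/db, 28.7 in 16-week db/db and 249 in HFD, with log2 ratios of -0.42, -2.07 (-2.27 to -1.87) and 1.05 (0.94 to 1.16). H2-DMa, its partner, stood at 222 (211 to 233) CPM in WT, 174 (167 to 180.4) in 8-week db/db, 143 (136 to 151) in 16-week db/db and 256 (246 to 266) in HFD and varied least of the 9, with log2 ratios of -0.35 (-0.44 to -0.26), -0.63 (-0.73 to -0.52) and 0.21 (0.12 to 0.30). Without the inflammatory macrophages its 16-week db/db ratio was 0.06. H2-DMa was the only member within 2-fold of WT in 16-week db/db macrophages.

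The costimulatory members parted from the chains in HFD. Cd83, which stabilises surface class II and Cd86, stood at 1506 (1478 to 1534) CPM in WT, 1342 (1324 to 1361) in 8-week db/db, 111 (104 to 118) in 16-week db/db and 331 (319.6 to 342) in HFD. Its log2 ratios were -0.17 (-0.20 to -0.13), -3.76 (-3.85 to -3.67) and -2.19 (-2.24 to -2.13), the last at a class II sum above that of WT. Cd86, the costimulatory ligand, stood at 192 (183 to 203) CPM in WT, 135 (129 to 141) in 8-week db/db, 29.5 (26.1 to 33.2) in 16-week db/db and 45.1 (41 to 49.5) in HFD, with log2 ratios of -0.51 (-0.61 to -0.41), -2.71 (-2.90 to -2.52) and -2.09 (-2.25 to -1.94). The summed level of Il1b, Ccl3, Ccl4, Tnf and Cxcl2 in the same macrophages was 12807 CPM in WT, 21029.5 in 8-week db/db, 1024 in 16-week db/db and 4359 in HFD, and the mitochondrial share of UMIs was 5.92%, 4.68%, 0.882% and 9.15%. Their part in the differences of Cd83 and Cd86 was not tested.

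**Figure D1:**
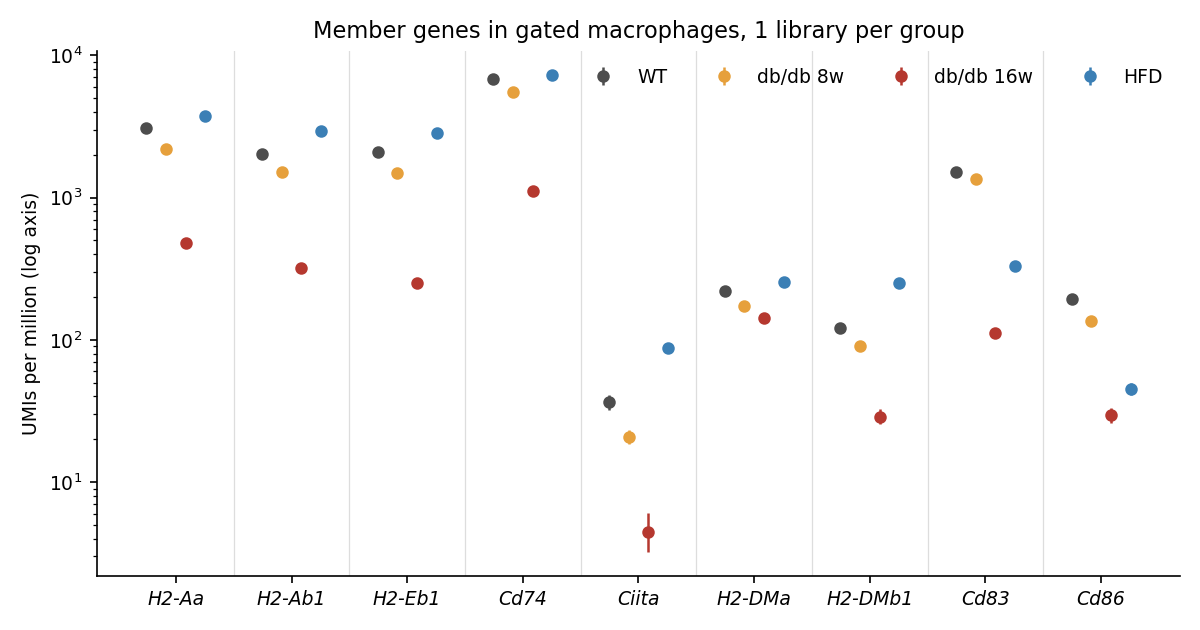
Levels of the 9 genes in gated macrophages of each library, in CPM on a log axis, with bars for the exact 95% Poisson interval of the UMI count. The chains, Cd74, Ciita and H2-DMb1 are lowest in 16-week db/db and highest in HFD, H2-DMa differs least, and Cd83 and Cd86 are low in both 16-week db/db and HFD.

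Counted by a ratio of at least 2-fold among genes with at least 20 CPM in either library, none of the 9 members was past the limit in 8-week db/db, where 5.05% of the 5702 genes were higher and 4.77% lower. In 16-week db/db 8 of the 9 were lower and none was higher, against 22.7% of 5992 genes lower and 20.8% higher. In HFD 2 of the 9, Ciita and H2-DMb1, were higher and 2, Cd83 and Cd86, were lower, against 15% of 6090 genes higher and 11.1% lower. The median log2 ratio of the members was -0.42 in 8-week db/db, -2.68 in 16-week db/db and 0.28 in HFD, beside 0.06, -0.06 and 0.20 over all genes counted. Without the inflammatory macrophages 5 members were at least 2-fold higher in HFD (H2-Aa, H2-Ab1, H2-Eb1, Ciita and H2-DMb1) and 1, Ciita, was lower in 8-week db/db. With the other myeloid cells added, Ciita alone was at least 2-fold higher in HFD, and the log2 ratio of H2-DMb1 was 0.96.

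Side by side, the db/db libraries of 8 and 16 weeks differed by a log2 ratio of -2.30 (-2.32 to -2.28) for the class II sum, -0.28 (-0.37 to -0.18) for H2-DMa and -3.60 (-3.69 to -3.51) for Cd83, with all 9 members lower at 16 weeks. HFD stood above 16-week db/db by a log2 ratio of 2.96 (2.94 to 2.98) for the sum and 4.28 (3.83 to 4.76) for Ciita. For Cd86 that difference was 0.61 (0.39 to 0.83).

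The proportions among the members differed between libraries. In macrophages there were 0.674 (0.66 to 0.688) UMIs of H2-Eb1 for each UMI of H2-Aa in WT, 0.676 (0.665 to 0.688) in 8-week db/db, 0.519 (0.493 to 0.546) in 16-week db/db and 0.76 (0.749 to 0.772) in HFD. In cells gated as type 1 conventional dendritic cells (cDC1), which take up dead cells and present to both kinds of T cell, the same ratio was 0.618, 0.648, 0.49 and 0.791, so that 16-week db/db was lowest and HFD highest in both cell types. For each UMI of H2-Ab1 there were 1.53, 1.44, 1.5 and 1.27 UMIs of H2-Aa in macrophages. In cDC1-gated cells there were 1.57, 1.34, 1.67 and 1.01, again lowest in HFD. For each UMI of the 3 chains together, macrophages held 0.949 (0.937 to 0.96) UMIs of Cd74 in WT, 1.06 (1.05 to 1.07) in 8-week db/db, 1.06 (1.04 to 1.09) in 16-week db/db and 0.759 (0.752 to 0.767) in HFD. In cDC1-gated cells this ratio was 0.723 (0.688 to 0.759), 0.799 (0.777 to 0.823), 0.754 (0.723 to 0.786) and 0.73 (0.712 to 0.748), so that the low value of HFD relative to WT was not shared there. UMIs were counted at the 3′ ends of transcripts, so these ratios compare libraries and are not ratios of molecules.

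The chains of H2-DM departed most. Macrophages held 1.84 (1.69 to 1.995) UMIs of H2-DMa for each UMI of H2-DMb1 in WT, 1.93 (1.8 to 2.06) in 8-week db/db, 4.99 (4.37 to 5.71) in 16-week db/db and 1.03 (0.97 to 1.08) in HFD. Over all dendritic cell gates the ratio was 1.82, 1.92, 2.41 and 1.36, so that the order of the libraries was kept and the 16-week db/db value was nearer to the others. H2-DMb2, the second gene for the beta chain, stood in macrophages at 44.3 CPM in WT, 35.1 in 8-week db/db, 6.84 in 16-week db/db and 1.92 in HFD. It was 23-fold lower in HFD than in WT, a log2 ratio of -4.53 (-5.28 to -3.86), where H2-DMb1 was 2.07-fold higher. Of the UMIs of both genes, H2-DMb2 held 26.9% (24.4 to 29.4) in WT macrophages, 28% (26 to 30.1) in 8-week db/db, 19.2% (15.1 to 23.9) in 16-week db/db and 0.766% (0.462 to 1.19) in HFD, by Clopper-Pearson intervals. In dendritic cell gates it held 29.2%, 35%, 22.7% and 8.6% (6.56 to 11). In B cells it held 73.3% in WT, 75.4% in 8-week db/db and 75% (34.9 to 96.8) in HFD, the last from only 8 UMIs. The low share of H2-DMb2 in HFD was thus found in macrophages and dendritic cells and was not seen in B cells at this depth. The genes are near copies, so the split of reads between them depends on the counting and is uncertain. Their sum in macrophages was 165 CPM in WT, 125 in 8-week db/db, 35.6 in 16-week db/db and 251 in HFD, and with it there were 1.34, 1.39, 4.03 and 1.02 UMIs of H2-DMa for each beta chain UMI.

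To ask whether fewer macrophages carried class II transcripts or each carried fewer, every macrophage was thinned to 1000 UMIs. Thinning left out 7, 85, 53 and 0 shallower cells in WT, 8-week db/db, 16-week db/db and HFD. At least 2 class II UMIs were then found in 73.4% (70.7 to 76) of macrophages in WT, 64% (62.1 to 66) in 8-week db/db, 27.7% (25.4 to 30) in 16-week db/db and 92% (90.4 to 93.4) in HFD. Before thinning the shares were 90.6%, 79.6%, 41.9% and 99.8%. Stromal cells, taken here as the background, reached 1.84%, 5.84%, 0.29% and 8.13% after thinning (12.5%, 21.1%, 1.05% and 59.4% before it), with median depths of 6718, 3034, 2699 and 4934 UMIs against 5566, 4958, 4735 and 5829 in macrophages. Whether the class II UMIs of stromal cells are free RNA or their own transcripts was not tested. Every macrophage share lay well above that background, which was highest in HFD and lowest in 16-week db/db. Without the inflammatory macrophages the share of 8-week db/db lay 18.7 percentage points below that of WT, against 9.37 with them.

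The distribution differed at both ends. No class II UMI was found in 14.9% of thinned macrophages in WT, 25% in 8-week db/db, 62.6% in 16-week db/db and 4.12% in HFD. Among thinned stromal cells 89.4%, 82.5%, 98% and 65% held none, so the background at 1 UMI differed between the libraries as well. At least 20 UMIs were found in 25.6%, 21.9%, 5.07% and 49.2% of the macrophages. The median cell held 6, 4, 0 and 19 class II UMIs per 1000. In 16-week db/db the class II transcripts were thus concentrated in a minority of cells: the top 10% of macrophages held 69.8% of the class II UMIs there, 37.8% in WT, 40.1% in 8-week db/db and 24.7% in HFD.

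**Figure D2:**
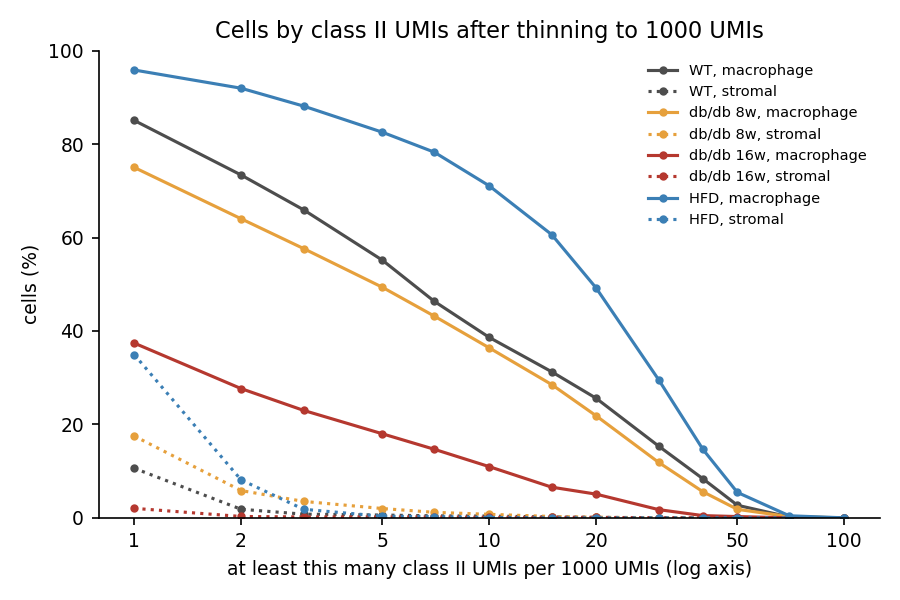
Percent of gated macrophages (solid lines) and of stromal cells (dotted lines) with at least the number of class II UMIs on the log x axis, after thinning each cell to 1000 UMIs, 1 colour for each library. The macrophage line of 16-week db/db is the lowest and that of HFD the highest: the share of macrophages without a class II UMI is 62.6% in 16-week db/db and 4.12% in HFD, and the share with at least 20 is 5.07% and 49.2%. The share of stromal cells without a class II UMI is 98% in 16-week db/db and 65% in HFD.

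Macrophages were divided by 6 genes of perivascular macrophages (PVMs: Lyve1, Folr2, Cd163, Cbr2, F13a1, Timd4) and 6 of lipid-associated macrophages (LAMs: Trem2, Cd9, Gpnmb, Spp1, Lpl, Mmp12), with at least 2 seen of a list. The class II sum of PVM-gated cells was 12472 CPM from 827 cells in WT, 9496 CPM from 1148 cells in 8-week db/db, 2128 CPM from 252 cells in 16-week db/db and 35479 CPM from 34 cells in HFD. That of LAM-gated cells was 30909.6 CPM from 22 cells in WT, 13314 CPM from 472 cells in 8-week db/db, 2445 CPM from 728 cells in 16-week db/db and 16386 CPM from 908 cells in HFD. Within a library the log2 ratio of LAM-gated over PVM-gated cells was 1.31 (1.27 to 1.35) in WT, 0.49 (0.47 to 0.51) in 8-week db/db, 0.20 (0.13 to 0.28) in 16-week db/db and -1.11 (-1.16 to -1.07) in HFD. The order of the subsets in HFD was the opposite of that in the other libraries. The WT value rests on 22 LAM-gated cells and the HFD value on 34 PVM-gated cells, and the 16-week db/db value was -0.037 when macrophages were gated at a C1q share of 0.1%. In the 34 HFD cells Ccr2, a receptor of recently recruited monocytes, stood at 600.1 CPM, against 92.4, 60.3 and 26.1 CPM in PVM-gated cells of WT, 8- and 16-week db/db.

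The lower class II level of 16-week db/db was found in each subset. Relative to WT the log2 ratio there was -2.55 (-2.62 to -2.48) in PVM-gated, -3.66 (-3.70 to -3.62) in LAM-gated and -3.41 (-3.45 to -3.36) in cells with both lists. In HFD the ratio was 1.51 (1.46 to 1.55) in PVM-gated, -0.92 (-0.95 to -0.88) in LAM-gated and 0.13 (0.11 to 0.15) in cells with both. Macrophages with neither list were few and shallow, and their class II sum was the highest of the subsets in 8- and 16-week db/db, with 29221 CPM from 46 cells in WT, 25146 CPM from 134 cells in 8-week db/db, 8443 CPM from 104 cells in 16-week db/db and 36603 CPM from 60 cells in HFD. Ccr2 stood in these at 489, 217, 198 and 753 CPM in WT, 8-week db/db, 16-week db/db and HFD.

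Cd86 was lower in LAM-gated than in PVM-gated cells of 8-week db/db, 16-week db/db and HFD, and in WT the interval of the ratio included 0. In PVM-gated cells it stood at 188 CPM in WT, 193 in 8-week db/db, 115 in 16-week db/db and 128 in HFD, and in LAM-gated cells at 165 CPM in WT, 68.7 in 8-week db/db, 13.2 in 16-week db/db and 36 in HFD. The log2 ratio of LAM-gated over PVM-gated cells was -0.19 (-0.74 to 0.31) in WT, -1.49 (-1.70 to -1.29) in 8-week db/db, -3.12 (-3.60 to -2.64) in 16-week db/db and -1.83 (-2.56 to -1.001) in HFD, so that the PVM-gated cells of the 4 libraries were closer to each other than the LAM-gated cells. Cd83 stood at 1438 CPM in WT, 1259 in 8-week db/db, 153 in 16-week db/db and 352 in HFD for PVM-gated cells and at 1882 CPM in WT, 1227 in 8-week db/db, 92.6 in 16-week db/db and 323 in HFD for LAM-gated cells. Its log2 ratio between them was 0.39 (0.24 to 0.54) in WT, -0.037 (-0.09 to 0.018) in 8-week db/db, -0.72 (-1.02 to -0.41) in 16-week db/db and -0.13 (-0.56 to 0.34) in HFD, higher in the LAM-gated cells of WT and lower in those of 16-week db/db.

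Cells with at least 3 of Il1b, Ccl3, Ccl4, Tnf and Cxcl2 made up 44.5% of macrophages in WT, 62.9% in 8-week db/db, 7.18% in 16-week db/db and 29.2% in HFD. Their class II sum was 18575 CPM from 498 cells in WT, 12211 CPM from 1541 cells in 8-week db/db, 3399 CPM from 110 cells in 16-week db/db and 17521 CPM from 397 cells in HFD, above that of the remaining macrophages by a log2 ratio of 1.29 (1.27 to 1.32), 1.08 (1.06 to 1.10), 0.73 (0.67 to 0.79) and 0.09 (0.07 to 0.10). The difference was thus widest in WT and nearly absent in HFD. This gate asks for genes seen in a cell, and its cells were deeper than the rest. Their median was 8071.5 UMIs against 4466.5 in WT, 6326 against 3189 in 8-week db/db, 6044 against 4656 in 16-week db/db and 6661 against 5525.5 in HFD. The part of depth in the difference was not tested. Cycling macrophages, with at least 2 of 6 proliferation genes, had 19107 CPM from 25 cells in WT, 8794 CPM from 167 cells in 8-week db/db, 1037 CPM from 328 cells in 16-week db/db and 10855 CPM from 136 cells in HFD, and the log2 ratio to the macrophages not cycling was 0.46 (0.42 to 0.51), -0.31 (-0.34 to -0.29), -1.39 (-1.44 to -1.33) and -0.72 (-0.74 to -0.70).

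**Figure D3:**
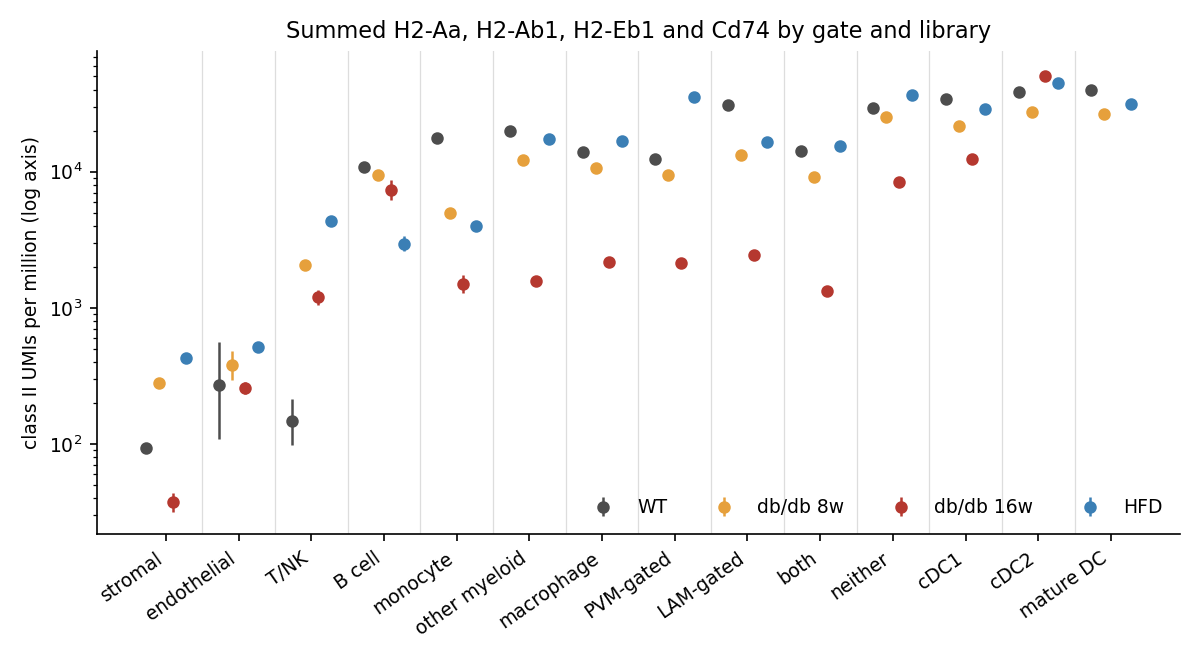
Class II sum in CPM, on a log axis, by cell gate and macrophage subset in each library, with exact 95% Poisson intervals. cDC1 and cDC2 lie above macrophages, and stromal cells lie far below them, in each library, and the spread between libraries is wider in macrophages than in dendritic cells.

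The other members were then followed along the class II content of single macrophages, in bins of 0, 1 to 4, 5 to 19 and at least 20 class II UMIs per 1000. H2-DMa stood in these bins at 36.1, 90.1, 204 and 418 CPM in WT, 22, 49.4, 183 and 429 in 8-week db/db, 72.4, 202, 356 and 680 in 16-week db/db and 17.9, 77.3, 236 and 492 in HFD. It was higher in each fuller bin of each library. Compared bin by bin it was highest in 16-week db/db, though its interval overlapped that of HFD in every bin but that of 1 to 4 UMIs, and that of WT in the empty bin. The bins are ranges and the fullest is open, so cells of the same bin need not hold equal class II content in each library. In the cells with no class II UMI it was 72.4 (56.1 to 92) CPM there against 36.1 (13.3 to 78.7) in WT, and with at least 20 it was 680 (506 to 894) against 418 (346 to 499.7). The nearness of the H2-DMa level of 16-week db/db to that of WT over all macrophages came with a higher level in the bins that hold class II UMIs and fewer cells in the full bins, and in the empty bin the levels of both could not be told apart at this depth.

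H2-DMb1 was likewise higher in each fuller bin, at 0, 15, 76 and 256 CPM in WT, 1.69, 23.1, 78.3 and 257 in 8-week db/db, 1.08, 38.3, 109.9 and 373 in 16-week db/db and 35.7, 66.3, 172 and 390.1 in HFD. In the fullest bin HFD and 16-week db/db were alike, at 390.1 (344 to 440.4) and 373 (248 to 539.6), with overlapping intervals, and WT stood at 256 (201 to 322). The 0 of the empty bin of WT allows up to 22.2 CPM. Ciita stood at 0, 12, 30.4 and 94.7 CPM in WT, 1.69, 4.94, 23 and 77.4 in 8-week db/db, 1.08, 10.5, 26.2 and 40 in 16-week db/db and 0, 33.1, 92.7 and 176 in HFD. In the fullest bin it was 176 (146 to 211) in HFD, above 94.7 (62.4 to 138) in WT, while the 16-week db/db value was 40 (8.25 to 117). In the empty bin few or no Ciita UMIs were counted, and the 0 of WT allows up to 22.2 CPM and that of HFD up to 65.9 CPM.

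Cd83 was low in 16-week db/db and HFD in every bin. It stood at 620.5, 991, 1334 and 2032 CPM in WT, 941, 1193, 1589.9 and 1760.2 in 8-week db/db, 99.5, 192, 152 and 267 in 16-week db/db and 232, 265, 331 and 481 in HFD. Within WT, 8-week db/db and HFD it was higher in each fuller bin. Cd86 showed no steady order along the bins in WT, at 145, 195, 170.2 and 179 CPM, or in 8-week db/db, at 146, 119, 177 and 166. It was 37.8, 62.7, 52.4 and 53.3 CPM in 16-week db/db, and in HFD it was higher in each fuller bin, at 0, 16.6, 44.2 and 82.2, where the count of 0 in the empty bin allows up to 65.9 CPM. Lyve1, a marker of PVMs, was lower in each fuller bin of WT at 1488, 1333, 894 and 337 CPM, of 8-week db/db at 1303, 1076, 582 and 304 CPM and of HFD at 89.3, 49.7, 13.2 and 4.48 CPM. In 16-week db/db it stood at 325, 76.7, 89 and 187 CPM, highest in the empty bin and without that order over the others. Ccr2 was higher in each fuller bin of WT at 18.1, 36, 63.8 and 154 CPM, and stood at 11.8, 13.2, 63 and 112 CPM in 8-week db/db, 16.2, 45.3, 57.6 and 93.3 in 16-week db/db and 17.9, 5.52, 104 and 335 in HFD. The depth of the cells before thinning moved with the bins as well, from a median of 10399.5 UMIs in the empty to 4557 in the fullest bin of HFD, from 5739 to 3168 in 16-week db/db, and the other way in WT, from 4838 to 6829. The part of cell size in these values was not tested.

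**Figure D4:**
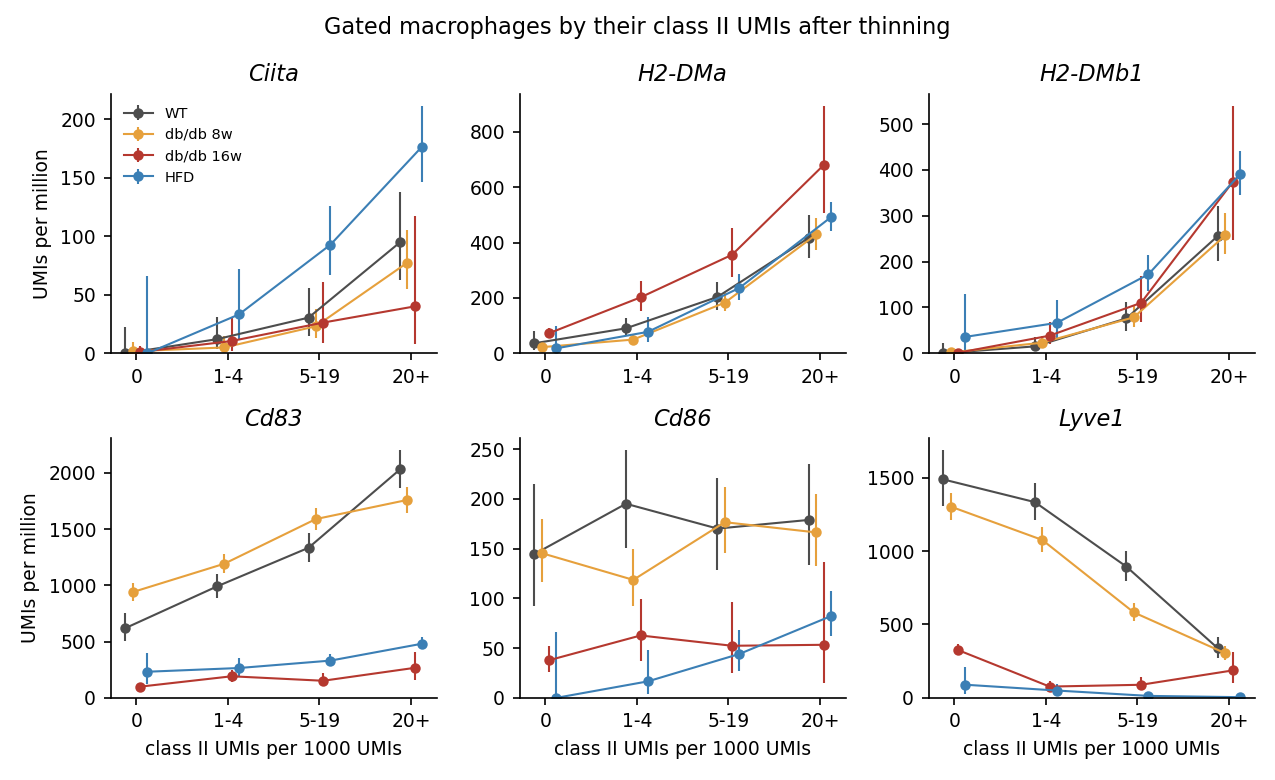
Levels of H2-DMa, H2-DMb1, Ciita, Cd83, Cd86 and the PVM marker Lyve1 in CPM along 4 bins of class II UMIs per macrophage thinned to 1000 UMIs, 1 line for each library, with exact 95% Poisson intervals. H2-DMa of 16-week db/db has the highest level in every bin, with intervals that overlap those of HFD in 3 of the 4 bins and that of WT in the empty bin, and Cd83 of 16-week db/db and HFD lies below WT and 8-week db/db in every bin.

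Dendritic cells held the highest class II levels among the larger gates. Over the dendritic cell gates together the class II sum was 36844 CPM from 42 cells in WT, 22885 CPM from 128 cells in 8-week db/db, 13474 CPM from 90 cells in 16-week db/db and 32194 CPM from 224 cells in HFD, above macrophages of the same library by a log2 ratio of 1.39 (1.37 to 1.42), 1.10 (1.08 to 1.12), 2.64 (2.60 to 2.67) and 0.93 (0.92 to 0.95). The difference was widest in 16-week db/db, where the macrophages were low. In cDC1-gated cells the sum was 33964 CPM from 17 cells in WT, 21593 CPM from 80 cells in 8-week db/db, 12280.4 CPM from 81 cells in 16-week db/db and 28794 CPM from 131 cells in HFD, with log2 ratios to WT of -0.65 (-0.69 to -0.61), -1.47 (-1.51 to -1.42) and -0.24 (-0.28 to -0.20). Of the thinned cDC1-gated cells of 16-week db/db 34.6% held no class II UMI, against 6.25% in 8-week db/db and 1.53% in HFD, while the median cell held 32 class II UMIs per 1000 in WT, 23.5 in 8-week db/db, 22 in 16-week db/db and 32 in HFD. Of 3 factors of dendritic cell development that were not part of the gate, Irf8 stood at 670.3 CPM in WT, 226 in 8-week db/db, 248 in 16-week db/db and 373 in HFD. Batf3 stood at 164 CPM in WT, 124 in 8-week db/db, 54.2 in 16-week db/db and 134 in HFD, and Zbtb46 at 56.3 CPM in WT, 17.2 in 8-week db/db, 12.2 in 16-week db/db and 22.9 in HFD. Batf3 and Zbtb46 were thus lowest in 16-week db/db, while Irf8 was lowest in 8-week db/db. No intervals were made for these factors, and the Zbtb46 levels rest on few UMIs. The lower sum of 16-week db/db went with a group of gated cells that had no class II UMI, and whether all of the gated cells are cDC1 was not tested.

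Type 2 conventional dendritic cells (cDC2), the main presenters to CD4 T cells, were too few for a firm value, with 38339 CPM from 14 cells in WT, 27551 CPM from 20 cells in 8-week db/db, 50533 CPM from 7 cells in 16-week db/db and 44964 CPM from 62 cells in HFD. Their log2 ratios to WT were -0.48 (-0.54 to -0.42), 0.40 (0.31 to 0.48) and 0.23 (0.18 to 0.28). The 16-week db/db ratio was -0.10 when macrophages were gated at a C1q share of 0.4%, and the 8-week db/db ratio was 0.018 without the deepest 10% of cells, so that neither direction held under all settings. The 7 cells of 16-week db/db did not share the low level of the 16-week db/db macrophages. Cd83 in cDC1-gated cells stood at 1105 CPM in WT, 859 in 8-week db/db, 93.4 in 16-week db/db and 310.0 in HFD, and Cd86 at 174 CPM in WT, 144 in 8-week db/db, 20.3 in 16-week db/db and 85.1 in HFD. In cDC1-gated cells both were thus lower in 16-week db/db and HFD than in WT, as in macrophages. Between HFD and WT the log2 ratio of Cd86 was -0.05 (-0.92 to 0.88) in cDC2-gated and -0.20 (-0.96 to 0.56) in mature dendritic cells, so no lower level was seen there at this depth. For Cd83 it was -0.87 (-1.23 to -0.51) and -0.68 (-1.04 to -0.34).

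Of the class II UMIs of all gated cells, macrophages held 75.6% in WT, 63.8% in 8-week db/db, 43.9% in 16-week db/db and 62.5% in HFD. The dendritic cell gates held 12.2%, 11.1%, 22.7% and 16.5%, and when cells were gated after thinning, which left few dendritic cells to be recognised, 1.49%, 1.65%, 3.98% and 2.59%. Both ways 16-week db/db was highest and the level of the share was set by the gating. Myeloid cells outside the named gates, with a class II sum of 19755 CPM from 74 cells in WT, 12168 CPM from 619 cells in 8-week db/db, 1561 CPM from 1154 cells in 16-week db/db and 17364 CPM from 389 cells in HFD, held 30.8% in 16-week db/db and 6.68% in WT. The 6 LAM genes together stood in these cells at 2208 CPM in WT, 6698 in 8-week db/db, 9355 in 16-week db/db and 7000 in HFD. In gated macrophages they stood at 444, 3678, 6096 and 8078 CPM. The macrophage and LAM-gated values therefore leave out myeloid cells with LAM transcripts and a C1q share below the limit. Monocytes of WT had 17784 CPM from 25 cells, against 4946 CPM from 80 cells in 8-week db/db, 1498 CPM from 34 cells in 16-week db/db and 3971 CPM from 71 cells in HFD. B cells had 10739 CPM from 13 cells in WT, 9482 CPM from 74 cells in 8-week db/db, 7373 CPM from 6 cells in 16-week db/db and 2950.4 CPM from 13 cells in HFD. T and NK cells had 149 CPM in WT, 2069 in 8-week db/db, 1191 in 16-week db/db and 4328 in HFD. Stromal cells had 93.6 CPM in WT, 282 in 8-week db/db, 37.2 in 16-week db/db and 426 in HFD, and both were highest in HFD. The T and NK gate set no limit on myeloid genes other than C1q. Adgre1 stood in it at 0 CPM in WT, 37.6 in 8-week db/db, 24.5 in 16-week db/db and 42.2 in HFD. The part of mixed cells or free RNA in its class II level was not tested. Subtracting the stromal level from the macrophages gave log2 ratios to WT of -0.42, -2.71 and 0.24.

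Among 18 other genes of the pathway, 12 reached 20 CPM in macrophages of WT or the compared library. In 8-week db/db none was at least 2-fold lower or higher, in 16-week db/db 6 were lower and 1 higher, against 22.7% and 20.8% of all genes counted, and in HFD 6 were lower and 1 higher, against 11.1% and 15%. Their median log2 ratios were -0.12, -0.70 and -0.82. The enzymes that prepare peptides did not share the low level of the chains in 16-week db/db. Ctss, which cuts the invariant chain, stood at 1068 CPM in WT, 1541 in 8-week db/db, 2093 in 16-week db/db and 2630.2 in HFD, with log2 ratios of 0.53, 0.97 and 1.3. Ifi30, a lysosomal thiol reductase that unfolds antigens, stood at 301 CPM in WT, 394 in 8-week db/db, 729 in 16-week db/db and 523 in HFD, and was 2.42-fold higher in 16-week db/db than in WT. H2-DMa, at a log2 ratio of -0.63, lay between these enzymes and the chains.

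Several costimulatory and signalling genes were low in the same libraries as Cd83 and Cd86. Cd80, the second ligand of the costimulatory receptor that Cd86 binds, stood at 21.6 CPM in WT, 11.9 in 8-week db/db, 1.5 in 16-week db/db and 3.95 in HFD. Cd40, through which helper T cells license presenting cells, stood at 39.7 CPM in WT, 36.8 in 8-week db/db, 13.8 in 16-week db/db and 14.8 in HFD. March1, the ubiquitin ligase opposed by Cd83, stood at 116 CPM in WT, 73.6 in 8-week db/db, 55.2 in 16-week db/db and 52.7 in HFD. All of these were at least 2-fold lower in 16-week db/db and in HFD. Il10, an anti-inflammatory cytokine known to limit class II at the surface, stood at 410.3 CPM in WT, 386 in 8-week db/db, 11.6 in 16-week db/db and 47.9 in HFD, with log2 ratios of -5.14 (-5.43 to -4.86) in 16-week db/db and -3.10 (-3.24 to -2.96) in HFD. Irf1, a factor induced by interferon, stood at 362 CPM in WT, 311 in 8-week db/db, 49.9 in 16-week db/db and 73.7 in HFD, at least 2-fold lower than in WT in 16-week db/db and HFD. Ifng, the interferon that induces Ciita, was read in the T and NK cells, 35, 127, 72 and 63 cells in the same order, at 74.3 (40.6 to 125) CPM in WT, 125 (95.8 to 159) in 8-week db/db, 157 (107 to 221) in 16-week db/db and 113 (77 to 159) in HFD. These rest on 14, 63, 32 and 32 UMIs, and the interval of WT overlapped that of each other library.

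**Figure D5:**
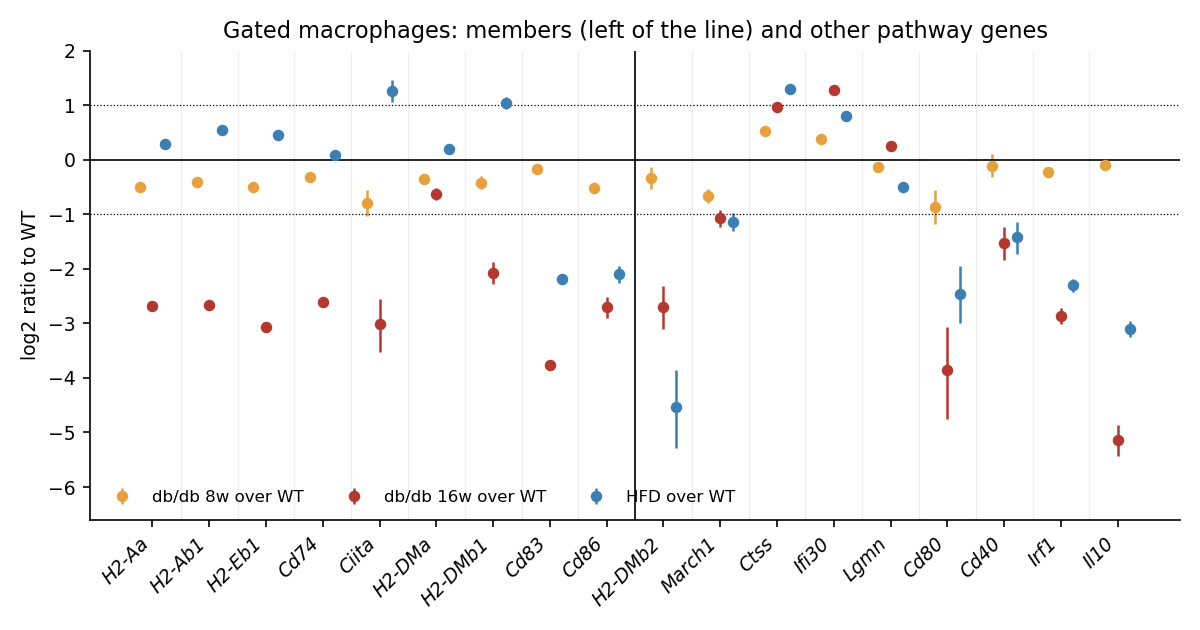
Log2 ratio to WT in gated macrophages for the 9 members (left of the vertical line) and other genes of the pathway, 1 colour for each library, with exact 95% intervals for counting error and dotted lines at a 2-fold ratio. The class II members lie far below 0 in 16-week db/db except H2-DMa, Cd83 and Cd86 lie below 0 in HFD while the chains do not, and Ctss and Ifi30 lie above 0 in all 3.

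Class I genes, taken for comparison, gave a different order. Of 7 measured members of a list of 8, 4 were at least 2-fold lower in 8-week db/db, 4 in 16-week db/db and 3 in HFD, against 4.77%, 22.7% and 11.1% of all genes counted. None was at least 2-fold higher, and the median log2 ratios were -1.36, -1.43 and -0.95. B2m, the light chain of class I, stood at 3365 CPM in WT, 1286 in 8-week db/db, 1009.6 in 16-week db/db and 1197 in HFD, and H2-K1, a heavy chain, at 1689 CPM in WT, 658 in 8-week db/db, 457 in 16-week db/db and 643 in HFD. Their log2 ratios to WT were -1.39, -1.74 and -1.49 for B2m and -1.36, -1.88 and -1.39 for H2-K1, so that both were lower than in WT also in HFD, where the class II chains were not. In the same order the ratios were -0.75, -0.96 and -1.19 for H2-D1, -1.61, -1.43 and -0.78 for Tap1, and -0.81, -1.51 and -0.95 for Tapbp. The rest of the measured list did not share this, with -1.41, 0.12 and -0.62 for Psmb9 and -0.52, 0.39 and 0.17 for Psmb8.

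The members' patterns across cell types were compared over 32 pairs of gate and library with at least 30 cells, by Pearson's correlation of log2(CPM + 10) with the class II sum among 6948 genes. The pairs share 4 libraries and their depths, so the coefficients are descriptions. H2-DMa reached 0.944 and H2-DMb1 0.941, above every gene outside the sum. Cd86 reached 0.849, Ciita 0.847 and Cd83 0.836, ranks 34, 39 and 49 of all genes. The 10 genes outside the list with the highest coefficients were Slamf7 (0.903), Syngr2 (0.894), Ccl9 (0.893), Clec4b1 (0.891), Ly86 (0.886), Cfp (0.883), Tnip3 (0.882), Tspan33 (0.876), Plek (0.876) and Csf2ra (0.873). The alpha and beta chains of H2-DM were thus nearest to the class II sum of all genes outside it.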

How the data were processed

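Per the labels and the study's methods, the authors sequenced 10x 3′ libraries of the stromal vascular fraction of BAT and made the deposited counts with Cell Ranger (7.1.0 per the labels, 6.0.0 per the file headers) against mm10. The deposited files hold raw UMI counts, not normalized, for each gene and called barcode. The study's own limits were applied: a barcode was kept with more than 250 but fewer than 6000 genes detected, a total above 500 but below 30000 UMIs, and a mitochondrial share below 15%. Python 3.11.15 with numpy 2.4.6, scipy 1.17.1 and pandas 2.3.3 was used for all values.

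Members, marker lists and gates were chosen with earlier results of these data known. Gates used raw UMIs of genes that are no member: myeloid cells needed at least 3 of 8 genes, and macrophages at least 3 C1q UMIs and 0.2% of UMIs. Myeloid cells also needed more UMIs of the myeloid than of the stromal or endothelial genes, and the T/NK and B cell genes seen in them were limited. Stromal and endothelial cells needed fewer than 3 myeloid genes. The T/NK and B cell gates asked for a C1q share below 0.2% but set no limit on the myeloid genes, so mixed cells could enter them. No doublet caller was run, and the deepest 10% of cells were left out as an alternative. Each group was 1 library, named by its label, and cells are not replicates, so UMIs were summed over the cells of a gate and no test was made. Intervals are exact (Poisson for CPM, conditional binomial for ratios, Clopper-Pearson for shares), at 95%, and cover counting error only. The limit that a count of 0 allows was set by that interval or by 3 counts. Steps were tested on simulated data. Alternatives were other gate limits, no mitochondrial limit, gating after thinning, other thinning depths, the mean of the 4 genes, other totals and background subtraction.

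The genes named were the 9 members, genes of fixed pathway and class I lists past 2-fold against WT in macrophages of at least 1 library, Ifng, and the 10 genes most like the class II sum. A gene of the pathway list is not reported here and was left out of the list's counts. Other genes given (Adgre1, Irf8, Ccr2, Lyve1, Xist) describe gates or libraries.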

Additional observations from a re-analysis of the deposited data

Results flagged for a closer look

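In gated macrophages the ratio to WT lay above 1 in HFD and below 1 in both db/db libraries for the class II sum and for 7 of the 9 members, while Cd83 and Cd86 were below WT in all 3. With 1 library a group these differences were not tested, and they share the WT library. The log2 ratio of HFD exceeded that of 16-week db/db by 2.96 for the sum, and by 2.97 for H2-Aa, 3.21 for H2-Ab1, 3.52 for H2-Eb1, 2.70 for Cd74, 4.28 for Ciita, 0.83 for H2-DMa and 3.12 for H2-DMb1. It exceeded that of 8-week db/db by 0.66 for the sum, and by 0.78 for H2-Aa, 0.97 for H2-Ab1, 0.95 for H2-Eb1, 0.40 for Cd74, 2.06 for Ciita, 0.56 for H2-DMa and 1.47 for H2-DMb1. Ciita stood at the wide end and H2-DMa at the narrow end of these differences against 16-week db/db.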

How the results depend on the processing

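No paired analysis was possible because each group is 1 library. Depth limits the smallest gates (cDC2, WT LAM-gated and HFD PVM-gated cells), and with 1 library a group no spread between animals could be had. The alternatives that added other myeloid cells or left out inflammatory macrophages were chosen after the data had been seen. A value was taken to have moved when it left its own counting interval, which is narrow here. For the members' ratios in macrophages the rule was looser, and a value outside its interval also counted as kept when it stayed on its side of 2-fold. By that rule 266 of 270 recomputed values were kept. H2-DMa in 16-week db/db counted as kept although its log2 ratio ranged from -0.87 to 0.06. The 4 others, all without inflammatory macrophages, were -1.16 for Ciita in 8-week db/db and 1.23, 1.42 and 1.39 for H2-Aa, H2-Ab1 and H2-Eb1 in HFD. The directions of the class II sum over all cells and in macrophages held under each alternative run. The cause of the moves below was not tested. Over all cells the log2 ratio was -0.78 in 16-week db/db and 1.33 in HFD without the mitochondrial limit, 0.46 in 8-week db/db and -0.46 in 16-week db/db without the deepest 10% of cells, 0.68 in 8-week db/db, -0.88 in 16-week db/db and 1.54 in HFD with mitochondrial UMIs out of the totals, 0.63 in 8-week db/db and 1.42 in HFD with the stromal level subtracted. It was 0.65 in 8-week db/db, -0.86 in 16-week db/db and 1.52 in HFD as the mean of 4 genes' ratios. In macrophages it was -0.31 in 8-week db/db, -2.60 in 16-week db/db and 0.50 in HFD without the mitochondrial limit, -0.18 in 8-week db/db, -2.33 in 16-week db/db and 0.69 in HFD without the deepest 10% of cells, -2.66 in 16-week db/db gated after thinning, -0.43 in 8-week db/db, -2.85 in 16-week db/db and 0.23 in HFD at a C1q share of 0.1%. It was -0.34 in 8-week db/db, -2.42 in 16-week db/db and 0.38 in HFD at a C1q share of 0.4%, -0.41 in 8-week db/db, -2.77 in 16-week db/db and 0.32 in HFD with mitochondrial UMIs out of the totals, -0.42 in 8-week db/db and 0.24 in HFD with the stromal level subtracted, -0.43 in 8-week db/db, -2.75 in 16-week db/db and 0.35 in HFD as the mean of 4 genes' ratios. It was -2.94 in 16-week db/db and 0.24 in HFD with other myeloid cells added, -1.89 in 16-week db/db and 1.12 in HFD without inflammatory macrophages. The share of macrophages with at least 2 class II UMIs, as a difference to WT in percentage points, was -5.89 in 8-week db/db, -41.3 in 16-week db/db and 24.6 in HFD without the mitochondrial limit, 22.5 in HFD without the deepest 10% of cells, -50.4 in 16-week db/db with other myeloid cells added, -18.7 in 8-week db/db, -37.2 in 16-week db/db and 26.7 in HFD without inflammatory macrophages. It was -5.8 in 8-week db/db, -37.2 in 16-week db/db and 27.4 in HFD at 5 UMIs, 9.15 in HFD without thinning, -50.3 in 16-week db/db and 14 in HFD at 2000 UMIs. LAM-gated over PVM-gated cells differed by a log2 ratio of 1.41 in WT, 0.51 in 8-week db/db and -0.59 in HFD without the mitochondrial limit, 1.52 in WT, 0.997 in 8-week db/db, 0.55 in 16-week db/db and -0.72 in HFD without the deepest 10% of cells, 1.12 in WT, 0.22 in 8-week db/db, 0.36 in 16-week db/db and -0.87 in HFD gated after thinning, 0.40 in 8-week db/db and -0.037 in 16-week db/db at a C1q share of 0.1%. It was 1.499 in WT, 0.66 in 8-week db/db, 0.58 in 16-week db/db and -0.999 in HFD at a C1q share of 0.4%, 1.26 in WT and 0.47 in 8-week db/db with mitochondrial UMIs out of the totals, 1.36 in WT, 0.61 in 8-week db/db and 0.29 in 16-week db/db as the mean of 4 genes' ratios. In cDC2-gated cells, of which none was left in WT when gated after thinning, the ratio was 0.018 in 8-week db/db without the deepest 10% of cells, -0.033 in 8-week db/db at a C1q share of 0.1%, -0.56 in 8-week db/db and -0.10 in 16-week db/db at a C1q share of 0.4%, 0.55 in 16-week db/db with at least 4 myeloid genes. It was 0.35 in HFD with mitochondrial UMIs out of the totals, 0.31 in HFD as the mean of 4 genes' ratios. The dendritic share of class II UMIs in percent was 11.8 in WT, 10.6 in 8-week db/db and 12.9 in HFD without the mitochondrial limit, 9.92 in WT, 8.45 in 8-week db/db, 24.8 in 16-week db/db and 17.4 in HFD without the deepest 10% of cells, 1.49 in WT, 1.65 in 8-week db/db, 3.98 in 16-week db/db and 2.59 in HFD gated after thinning, 11.7 in WT, 10.2 in 8-week db/db, 21.3 in 16-week db/db and 14.7 in HFD at a C1q share of 0.1%. It was 13.6 in WT, 12.4 in 8-week db/db, 24.8 in 16-week db/db and 18 in HFD at a C1q share of 0.4%, 10.9 in 8-week db/db, 20.7 in 16-week db/db and 16 in HFD with at least 4 myeloid genes. Members at least 2-fold from WT numbered 1 higher (HFD) with other myeloid cells added and 5 higher (HFD) and 1 lower (8-week db/db) without inflammatory macrophages, and at 1.5-fold 1 was lower in 8-week db/db.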
